A study of Drosophila melanogaster with 12 samples.

Results

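The transcripts of 10 eggshell genes were followed through dissected tracheae and whole flies of *Drosophila melanogaster*. These are the vitelline membrane genes *Vm26Aa*, *Vm26Ab*, *Vm32E* and *Vm34Ca* and the chorion genes *Cp36*, *Cp38*, *Cp16*, *Cp19*, *Cp15* and *Cp18*, chosen by name among the 17697 genes of the deposited tables. The 12 libraries comprised 4 of hand-dissected adult tracheae, 4 of hand-dissected larval tracheae and 4 of whole adult females. All animals had the genotype w1118. The adults were females 5 to 7 days old and the larvae were of mixed sex in the middle of the third instar, and each library pooled 3 animals. The tracheae were pulled by hand from the opened head, thorax and abdomen, so other tissue was not removed by any sort or gate. The tracheal labels were checked against defining genes. The mean level of *btl*, the FGF receptor of tracheal cells, was 4.42 RPKM in adult tracheae, 45.9 RPKM in larval ones and 0.356 RPKM in whole flies. That of *trh*, which sets tracheal cell fate, was 2.32, 4.77 and 0 RPKM in the same order, and *rib*, another tracheal regulator, had 0 reads in every adult trachea library. RPKM is the exon reads of a gene scaled to its exon length in kilobases and to all gene reads of the library.

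The eggshell is made by the follicle cells, the somatic epithelium that encloses each growing oocyte in the ovary. In mid-oogenesis these cells secrete the proteins of the vitelline membrane, the layer next to the egg, and afterwards those of the chorion, the outer shell with its air-filled layers. The chorion genes sit in clusters on the X chromosome and on chromosome arm 3L, which follicle cells multiply by local DNA re-replication before transcribing them. Genes of the X cluster are transcribed earlier than those of the 3L cluster, and *Cp15* and *Cp18* are known as the last of the series. An eggshell transcript is therefore usually taken as a sign of egg chambers of a certain age, and neither adult nor larval tracheae are known to make eggshell.

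The genes were identified as follows, with positions on the BDGP6 genome as the files give them. The 3L cluster spanned 5809 bases, from 8726791 to 8732599. It held *Cp18* (FBgn0000357), *Cp15* (FBgn0000355), *Cp19* (FBgn0000358) and *Cp16* (FBgn0000356), in this order and on the plus strand. On the X chromosome, *Cp36* (FBgn0000359) and *Cp38* (FBgn0000360) lay within 3993 bases, from 8479319 to 8483311. Both stood inside *CG33223*, a gene annotated on the opposite strand. On chromosome arm 2L, *Vm26Ab* (FBgn0003980) and *Vm26Aa* (FBgn0003979) lay within 3337 bases, from 5957004 to 5960340, and pointed in opposite directions. *Vm34Ca* (FBgn0003983) stood alone on 2L, from 13411141 to 13411631. *Vm32E* (FBgn0014076), from 11171167 to 11171665 on 2L, lay inside *Ca-beta*, which encodes a calcium channel subunit and is annotated on the same strand. The annotation gives each chorion gene 1 intron of 71 to 226 bases and the vitelline membrane genes none. The encoded proteins have 116 to 168 residues for the vitelline membrane genes and 115 to 306 for the chorion genes.

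The depth ran from 5139980 to 14962142 gene reads for adult tracheae, from 5017919 to 8169848 for larval ones and from 5397732 to 9880844 for whole flies. The 10 eggshell genes took 0.704, 0.0114, 0.00688 and 0.973% of these reads in adult trachea replicates 1 to 4. In a larval library they took 5.57e-05 to 0.000658%, and in a whole-fly library 1.01 to 2.35%. The adult trachea libraries thus fell into a pair with many eggshell reads, replicates 1 and 4, and a pair with few, replicates 2 and 3. The RPKM summed over 17 tracheal markers was 159, 235.5, 198 and 153 in adult trachea replicates 1 to 4, and it ran from 1135 to 2579 for larval tracheae and from 101 to 140.4 for whole flies. The marker *mmy* alone supplied 45.9, 60.2, 56.0 and 70.1 RPKM in adult trachea replicates 1 to 4 and 62.3 to 100 RPKM in whole flies. Without *mmy*, adult tracheae and whole flies thus stood further apart than these sums do. The eggshell-rich replicates 1 and 4 were thus the lower ones in tracheal markers, and the part of this in the eggshell values was not tested. In bulk RNA, fewer cells that hold these transcripts and less of this RNA per cell cannot be told apart. Which cells of the dissected tissue the eggshell reads came from was not tested.

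**Figure D1:**
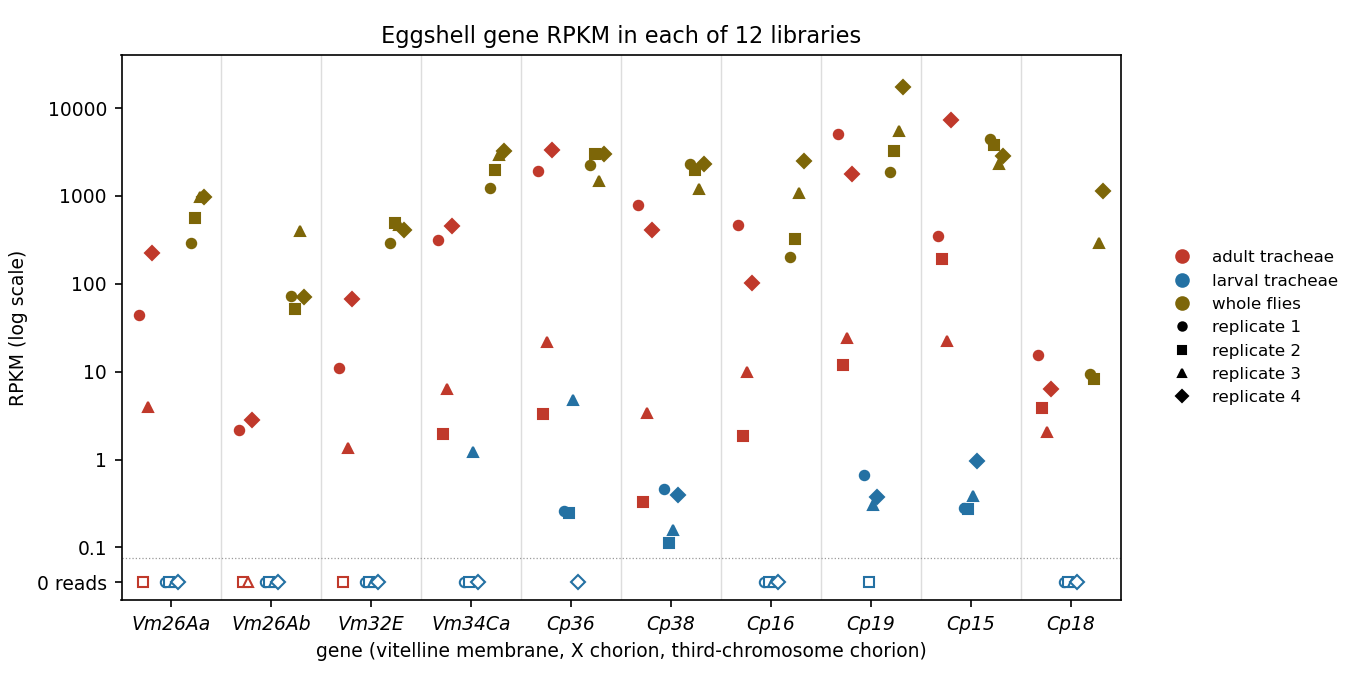
RPKM (log axis) of the 10 eggshell genes in each of the 12 libraries, with adult tracheae in red, larval tracheae in blue and whole flies in olive, and the replicate given by the symbol. Open symbols on the bottom line had 0 reads. Adult trachea replicates 1 and 4 stand near or below the whole flies for most genes, replicates 2 and 3 far below them, and the larval libraries at 4.82 RPKM or less.

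All 4 vitelline membrane genes were lower in every adult trachea library than in any whole fly, as were 20.7% of all 10234 genes tested, and 2 of the 4, *Vm26Ab* and *Vm32E*, passed the test, with 8.05% of all genes called lower. *Vm26Aa*, one of the abundant vitelline membrane proteins, was at 44.1, 0, 3.95 and 227 RPKM in adult trachea replicates 1 to 4, against 294, 568, 980.4 and 967 RPKM in whole-fly replicates 1 to 4. Every adult trachea library was below every whole-fly library. The fitted log2 fold change of adult tracheae over whole flies was -3.02 (standard error 1.28) and did not pass the threshold (edgeR, adjusted p = 0.1004).

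*Vm26Ab* encodes a vitelline membrane protein that is needed for a stable eggshell. It was at 2.14, 0, 0 and 2.78 RPKM in adult trachea replicates 1 to 4, against 71.9, 52.2, 401 and 71.2 RPKM in whole-fly replicates 1 to 4. It was the lowest of the 10 genes in both groups by mean RPKM. The adult tracheae held 30 reads of it over all 4 libraries, although replicates 1 and 4 were rich in chorion transcripts. Its log2 fold change was -6.54 (standard error 1.19, edgeR, adjusted p = 0.00466), lower in 4 of 4 adult trachea libraries than in any whole fly. Whole-fly replicate 3 stood apart from the other whole flies, and the other 3 vitelline membrane genes did not stand apart there.

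*Vm32E*, which is expressed by the follicle cells over a short window of oogenesis, was at 10.9, 0, 1.34 and 67.8 RPKM in adult trachea replicates 1 to 4, against 289, 491, 473 and 408 RPKM in whole-fly replicates 1 to 4. The groups did not overlap, and the whole flies differed among themselves by a factor of 1.70 only. The log2 fold change was -4.04 (standard error 1.16, edgeR, adjusted p = 0.0282). Without whole-fly replicate 4 the adjusted p was 0.0512. None of the 6481 reads of *Vm32E* was counted as uniquely mapped, and its host gene *Ca-beta* had 326 reads in the adult tracheae, 46 in the larval ones and 143 in the whole flies.

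*Vm34Ca* was the highest of the 4 vitelline membrane genes in every library of adult tracheae and whole flies. It was at 314, 1.96, 6.40 and 450.0 RPKM in adult trachea replicates 1 to 4, against 1227, 1953, 2909 and 3271 RPKM in whole-fly replicates 1 to 4. The groups did not overlap, but the tracheae spread over a factor of 229 and the whole flies over one of 2.66. The log2 fold change was -3.19 (standard error 1.20), which missed the threshold (edgeR, adjusted p = 0.0716).

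The X chorion genes stood at different distances from whole flies, and neither was called. *Cp36*, an early major chorion protein, was at 1925, 3.33, 21.7 and 3360.2 RPKM in adult trachea replicates 1 to 4, against 2262, 2974, 1496 and 2999 RPKM in whole-fly replicates 1 to 4. Replicates 1 and 4 lay within or above the whole-fly range and the other two far below it, and the log2 fold change was -0.49 (standard error 1.28, edgeR, adjusted p = 0.799). Its neighbour *Cp38*, also an early major chorion protein, was at 780.2, 0.330, 3.37 and 405 RPKM in adult trachea replicates 1 to 4, against 2322, 1987, 1201 and 2308 RPKM in whole-fly replicates 1 to 4. Here no library of the tracheae reached the lowest whole fly. The log2 fold change was -2.25 (standard error 1.41) and missed the threshold (edgeR, adjusted p = 0.246). Over all libraries 3.74% of the reads of *Cp36* and 2.91% of those of *Cp38* were counted as uniquely mapped, since both genes overlap *CG33223*, so a read of theirs cannot be told apart from one of the host without strand.

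The most abundant eggshell transcript of every adult library came from the 3L cluster, either *Cp19* or *Cp15*. *Cp19* was at 5042, 11.8, 24.2 and 1798 RPKM in adult trachea replicates 1 to 4, against 1873, 3224, 5457 and 17175 RPKM in whole-fly replicates 1 to 4. Its groups overlapped, and the log2 fold change was -1.49 (standard error 1.36, edgeR, adjusted p = 0.431). *Cp16*, the next gene of the cluster, was at 470.0, 1.85, 9.99 and 102 RPKM in adult trachea replicates 1 to 4, against 204, 324, 1087 and 2522 RPKM in whole-fly replicates 1 to 4. Adult trachea replicate 1 was above whole-fly replicates 1 and 2, and the log2 fold change of -2.27 (standard error 1.28) was not called (edgeR, adjusted p = 0.201).

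*Cp15* and *Cp18* are both late chorion genes and direct neighbours, and their levels spread over different libraries. *Cp15* was at 354, 189, 22.1 and 7386 RPKM in adult trachea replicates 1 to 4, against 4435, 3759, 2314 and 2839 RPKM in whole-fly replicates 1 to 4. The single value of adult trachea replicate 4 was above every whole fly and the other 3 were below every whole fly. The log2 fold change was -0.50 (standard error 1.14, edgeR, adjusted p = 0.769). Without that replicate it was -3.72, with an adjusted p of 0.00606 by the same edgeR test. *Cp18* was at 15.3, 3.82, 2.06 and 6.28 RPKM in adult trachea replicates 1 to 4, against 9.42, 8.26, 289 and 1144 RPKM in whole-fly replicates 1 to 4. Among the 7 genes with reads in every adult library, it was the only one whose level spread less in adult tracheae, by a factor of 7.42, than in whole flies, by one of 138. The groups overlapped, since replicates 1 and 2 of the whole flies were as low as the tracheae. The log2 fold change was -5.26 (standard error 1.43, edgeR, adjusted p = 0.0237), and without whole-fly replicate 4 it was -3.51 with an adjusted p of 0.0650.

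Between adult tracheae and whole flies, 3 of the 10 eggshell genes were lower and 0 were higher, namely *Vm26Ab*, *Vm32E* and *Cp18*. Of all genes tested, 8.05% were called lower and 16.7% higher. A gene counted as called where its fold exceeded 1.5 at an adjusted p under 0.05, in edgeR's quasi-likelihood test with adjustment over all genes tested. The unadjusted p was under 0.05 for 5 of the 10, the called genes with *Vm26Aa* and *Vm34Ca*, and for 16.2% of all genes with a lower level. All 10 fitted values were negative, with a median log2 fold change of -2.64 against 0.13 over all genes tested. For 5 genes every adult trachea library was below every whole fly in CPM (gene reads scaled to library size), the 4 vitelline membrane genes and *Cp38*, where 20.7% of all genes were lower in this way. Leaving out 1 library moved the count of called genes between 1 and 5. It was 5 without adult trachea replicate 4, when *Vm26Aa* and *Cp15* joined, and 1 without whole-fly replicate 4, when only *Vm26Ab* stayed. The replicates are separate libraries of pooled animals, and each p-value measures the spread between these libraries alone.

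**Figure D2:**
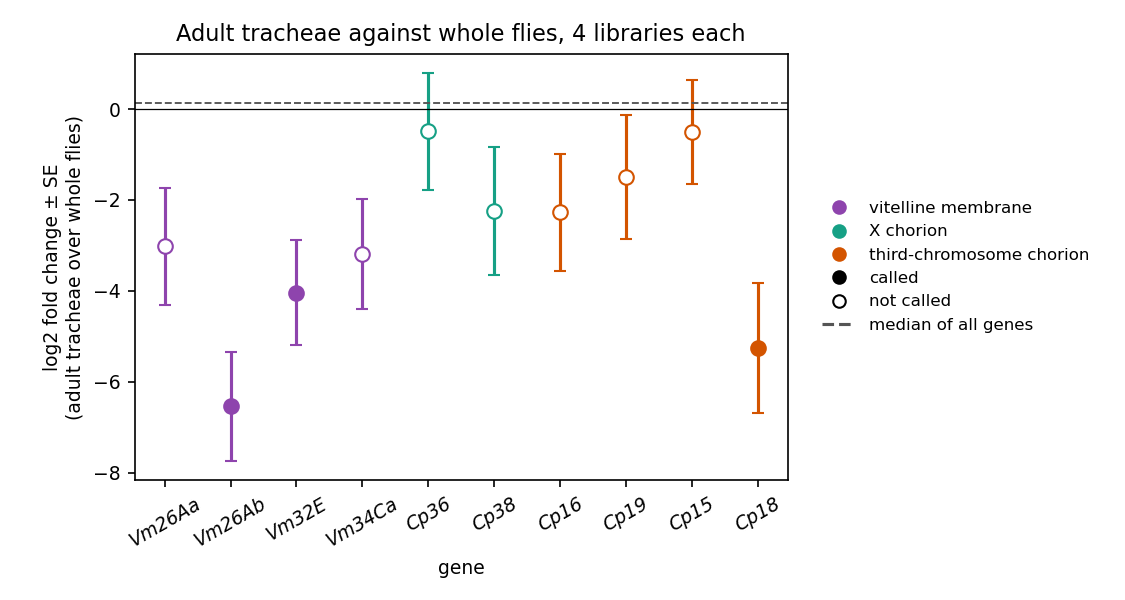
Fitted log2 fold change of adult tracheae over whole flies for each eggshell gene, with bars of 1 standard error and filled symbols for called genes (edgeR, 4 libraries per group). All 10 points lie below 0, from -0.49 for *Cp36* to -6.54 for *Vm26Ab*, and the dashed line marks the median of all genes at 0.13.

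The balance of the early and the late transcripts was then compared within each library, which does not depend on how much eggshell RNA a library held. The summed RPKM of the 4 vitelline membrane genes was divided by that of the 3L chorion genes. This ratio was 0.0631, 0.00948, 0.2003 and 0.0805 in adult trachea replicates 1 to 4, against 0.289, 0.419, 0.521 and 0.199 in whole-fly replicates 1 to 4. The median was 0.0718 in adult tracheae and 0.354 in whole flies. In 3 of 4 adult trachea libraries the ratio was below every whole fly, and replicate 3 was level with the lowest whole fly. The value of adult trachea replicate 2 rested on 7 vitelline membrane reads and that of replicate 3 on 101, where replicates 1 and 4 had 996 and 5535. As these ratios are scores over chosen genes, no test was made of them. The larval libraries held too few reads for a ratio.

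The ratio depended on which chorion genes it was set against. With *Cp15* and *Cp18* alone below the line, the medians were 0.293 in adult tracheae and 0.999 in whole flies. With the X chorion genes added to the 3L genes they were 0.0502 in adult tracheae and 0.210 in whole flies. In each of these versions the median of the adult tracheae was the lower one. Over *Cp15* and *Cp18* alone the groups overlapped, and adult trachea replicates 1 and 3 lay above whole-fly replicate 1. In adult trachea replicate 1 the vitelline membrane genes made up 4.14% of the summed eggshell RPKM, *Cp15* 3.95% and *Cp18* 0.171%. In whole-fly replicate 1 the same shares were 14.5, 34.1 and 0.0725%.

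**Figure D3:**
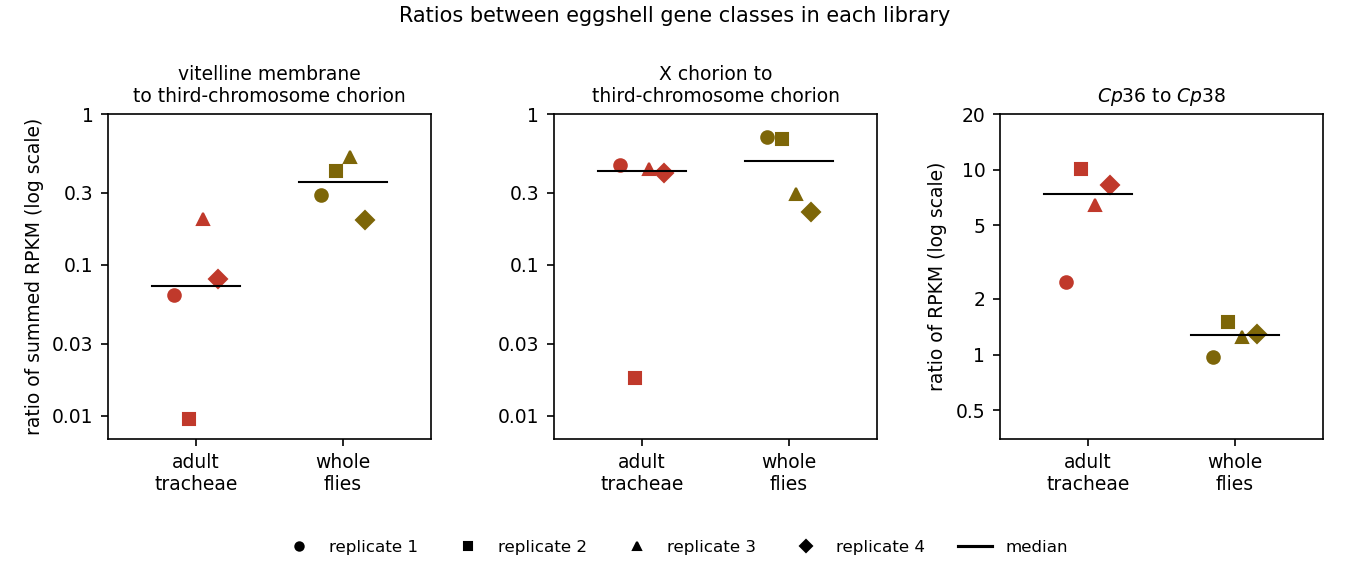
Ratios within each library, on log axes, in adult tracheae (red) and whole flies (olive), with the black line at the median of the 4 libraries. The vitelline membrane to 3L chorion ratio has medians of 0.0718 and 0.354, the X to 3L chorion ratio of 0.417 and 0.487, and the *Cp36* to *Cp38* ratio of 7.36 and 1.27.

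The X and 3L chorion genes did not part in this way. The summed RPKM of *Cp36* and *Cp38* over that of the 3L genes was 0.460, 0.0177, 0.429 and 0.405 in adult trachea replicates 1 to 4, against 0.703, 0.678, 0.295 and 0.224 in whole-fly replicates 1 to 4. The medians were 0.417 and 0.487, and 3 of the tracheal values lay inside the whole-fly range. Adult trachea replicate 2, with 30 reads of the X genes and 790.0 of the 3L genes, stood apart from the rest.

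Within the X cluster the balance of the genes was set out in the same way. The ratio of *Cp36* to *Cp38* was 2.47, 10.1, 6.43 and 8.29 in adult trachea replicates 1 to 4, against 0.974, 1.497, 1.25 and 1.30 in whole-fly replicates 1 to 4. The value of replicate 2 rested on 27 reads of *Cp36* and 3 of *Cp38*, which is at the floor, and was not resolved. The other 3 adult tracheae were above every whole fly. Both genes lie inside the host gene, and most of their reads were counted as not uniquely mapped. Reads that cross the intron belong to the spliced transcript. They were 3.47 and 3.68% of the exon reads of *Cp36* in adult trachea replicates 1 and 4, against 3.35 to 4.22% in whole flies. For *Cp38* they were 2.20 and 1.22%, against 1.31 to 3.82% in whole flies. In adult trachea replicate 3 the spliced reads were 1 of 362 for *Cp36*, or 0.276%, which is below every whole fly, and 0 of 63 for *Cp38*. In replicate 2 they were 0 of 27 for *Cp36*. At these depths the 63 and 27 reads do not resolve a share of the size seen in whole flies. Counted from spliced reads alone, the ratio of *Cp36* to *Cp38* was 3.48 and 22.4 in adult trachea replicates 1 and 4, against 0.785, 1.76, 3.28 and 1.27 in whole-fly replicates 1 to 4, and the other adult tracheae had too few. The part of the host gene in these ratios was not tested.

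Within the 3L cluster the order of the genes changed from library to library. *Cp19* was 14.2, 0.0625, 1.10 and 0.243 times as high as *Cp15* in adult trachea replicates 1 to 4, against 0.422, 0.858, 2.36 and 6.05 times in whole-fly replicates 1 to 4. *Cp16* stood at 1.33, 0.00974, 0.453 and 0.0139 times *Cp15* in the same adult tracheae, against 0.0460, 0.0862, 0.470 and 0.888 times in the whole flies. Adult tracheae thus covered a wider range than whole flies in both ratios. The ratio of *Cp18* to *Cp15* was 0.0432, 0.0201, 0.0934 and 0.000851 in adult trachea replicates 1 to 4, against 0.00212, 0.00220, 0.125 and 0.403 in whole-fly replicates 1 to 4. Whole-fly replicates 3 and 4 held more *Cp18*, *Cp16* and *Cp19* per *Cp15* than whole-fly replicates 1 and 2. The reads of these 4 genes were all uniquely mapped. At most 0.277% of the reads of any of the 10 genes were intron reads, and 24.0 to 31.2% of the *Cp15* exon reads crossed its intron in the 8 adult libraries. *Cp18* was less even, at 13.7, 75.0 and 69.8% in adult trachea replicates 1, 3 and 4, of 51, 20 and 53 exon reads. In whole-fly replicates 1 to 4 its share was 0, 1.89, 12.1 and 15.6%, of 33, 53, 1346 and 4037 exon reads. The cause of this difference was not tested.

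Put together as shares of the summed eggshell RPKM, each adult trachea library had a profile of its own. In replicate 1 the leading gene was *Cp19* with 56.3%, in replicate 2 *Cp15* with 89.1%, in replicate 3 *Cp19* with 25.5% and in replicate 4 *Cp15* with 53.5%. In the whole flies *Cp15* led in replicates 1 and 2 with 34.1 and 24.5%, and *Cp19* in replicates 3 and 4 with 32.9 and 51.0%. The vitelline membrane genes made up 4.14, 0.923, 12.3 and 5.42% in adult trachea replicates 1 to 4, against 14.5, 19.98, 28.7 and 14.0% in whole-fly replicates 1 to 4. No adult trachea library reached the lowest whole fly in this share. The share of the X chorion genes ran from 1.72 to 30.2% in adult tracheae, against 15.7 to 35.3% in whole flies.

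**Figure D4:**
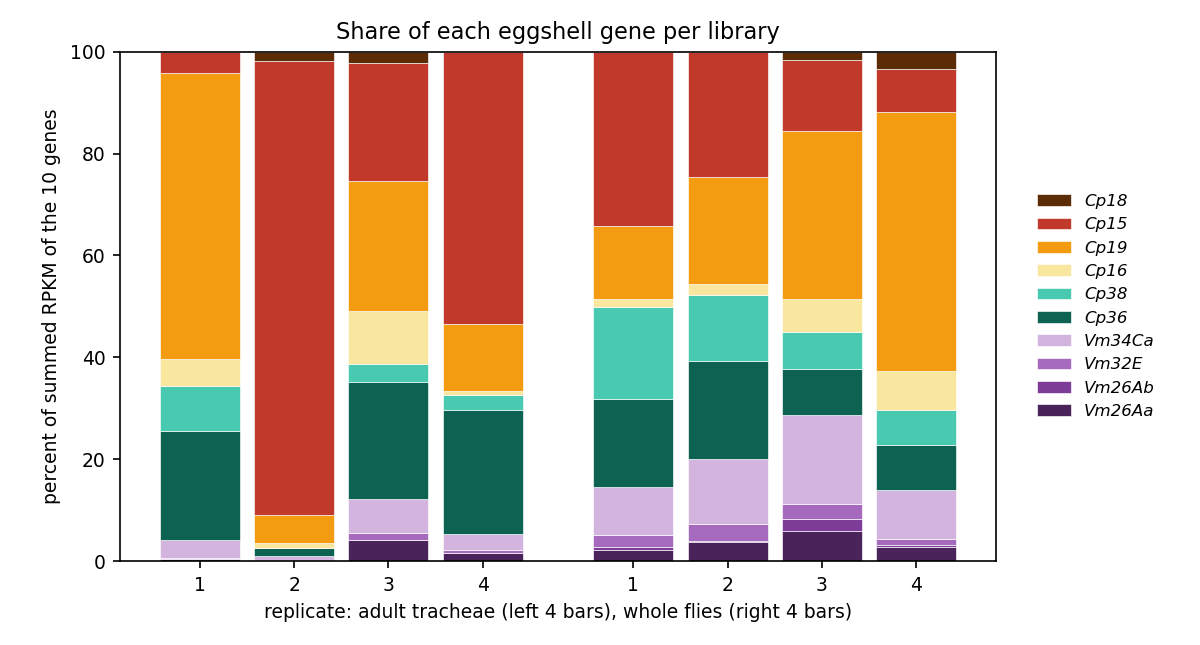
Percent of the summed RPKM of the 10 eggshell genes taken by each gene, in 4 adult trachea libraries (left) and 4 whole-fly libraries (right). The purple vitelline membrane part is 0.923 to 12.3% in adult tracheae, against 14.0 to 28.7% in whole flies, and *Cp15* fills 89.1% of adult trachea replicate 2.

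By mean RPKM the order in adult tracheae was *Cp15*, *Cp19*, *Cp36*, *Cp38*, *Vm34Ca*, *Cp16*, *Vm26Aa*, *Vm32E*, *Cp18* and *Vm26Ab*, with 1988 ± 3601 RPKM at the top and 1.23 ± 1.45 RPKM at the bottom (SD, n = 4). In whole flies it was *Cp19*, *Cp15*, *Cp36*, *Vm34Ca*, *Cp38*, *Cp16*, *Vm26Aa*, *Vm32E*, *Cp18* and *Vm26Ab*, with 6932 ± 6987 RPKM at the top and 149 ± 168 RPKM at the bottom (SD, n = 4). The ranges of every pair of neighbours in both orders overlapped. Only 2 neighbouring pairs held in all 4 adult trachea libraries, *Cp36* above *Cp38* and *Cp18* above *Vm26Ab*, and 1 in all 4 whole flies, *Vm26Aa* above *Vm32E*.

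Larval tracheae held next to none of these transcripts. The 5 genes *Vm26Aa*, *Vm26Ab*, *Vm32E*, *Cp16* and *Cp18* had 0 reads in all 4 libraries, where the floor of 3 reads stands at 0.367 to 0.598 CPM. *Vm34Ca* had 3 reads, all in larval trachea replicate 3, which put it at 1.22 RPKM there. *Cp36* had 31 reads, 27 of them in replicate 3, with values of 0.261, 0.250, 4.82 and 0 RPKM in replicates 1 to 4. Of those 27, 1 was spliced. *Cp38* was at 0.112 to 0.466 RPKM, *Cp15* at 0.270 to 0.951 RPKM and *Cp19* at 0 to 0.671 RPKM. These 3 genes had 10, 7 and 6 reads in all.

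All 10 eggshell genes were called lower in larval tracheae than in whole flies, where 27.5% of the 9944 genes tested were called lower. Their adjusted p-values were 7.77e-08 to 0.00633 (edgeR). None of these genes reached 10 reads in 2 larval libraries, so each was tested through its whole-fly reads alone. A lower call was thus favoured by the read filter and is no support of its own. All 10 lay below every whole fly, as did 38.2% of all genes in CPM. Set against the floor of 3 reads over the group, *Cp16* was at least 4905-fold, *Vm26Aa* at least 4751-fold, *Cp18* at least 2140.1-fold, *Vm32E* at least 1882-fold and *Vm26Ab* at least 860.5-fold lower in larval tracheae. For *Vm34Ca*, with its 3 reads, whole flies were higher by a factor of 10431 (95% Poisson interval 3569 to 50583). Such intervals and floors cover counting error only, since the reads carry no molecular identifiers.

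Adult tracheae exceeded larval tracheae in the 9 eggshell genes that were tested, where 18.2% of 10239 genes were called higher. None of the 9 reached 10 reads in 2 larval libraries, so each was tested through its adult reads alone. A higher call was thus favoured by the read filter and is no support of its own. The adjusted p-values were 0.00183 to 0.0378 (edgeR), and *Vm26Ab* had too few reads to be tested. The median log2 fold change was 9.88, against 0.16 over all genes tested, and depends on the prior count of the fit for the genes with 0 larval reads. Against the floor, *Cp16* was at least 692-fold, *Vm26Aa* at least 465-fold, *Vm32E* at least 90.7-fold, *Cp18* at least 40.4-fold and *Vm26Ab* at least 7.11-fold higher in adult tracheae. These folds use the mean of the adult libraries and do not hold in each of them. *Vm26Ab* had 0 reads in adult trachea replicates 2 and 3, and *Vm26Aa* and *Vm32E* had 0 in replicate 2. Every adult trachea library was above every larval one for 5 genes, *Cp15*, *Cp16*, *Cp18*, *Cp19* and *Vm34Ca*, where 18.9% of all genes were higher in this way. Even adult trachea replicate 3, the lowest in eggshell RNA, had 22.1 RPKM of *Cp15* against at most 0.951 RPKM in a larval library. The larval libraries are shared with the comparison to whole flies and the adult tracheae with the first comparison, so the 3 comparisons are not independent of each other.

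The wider eggshell set was examined next, in a list of 19 genes outside the 10. It held further chorion proteins such as *Cp7Fa*, *Cp7Fb* and *Cp7Fc*, the vitelline membrane genes *Vm26Ac*, *Vml* and *psd*, and factors of shell hardening such as *yellow-g2* and *Pxd*. Between adult tracheae and whole flies 2 of 18 tested genes were lower, *Vm26Ac* (log2 fold change of -4.27, standard error 1.18, edgeR, adjusted p = 0.0247) and *psd* (-2.23, adjusted p = 0.0276), and 1 was higher, where 8.05% of all genes were called lower and 16.7% higher. The higher gene was *tsl*, which patterns the ends of the embryo (2.35, adjusted p = 0.00117). The median of the list was -1.30, against 0.13 over all genes. Leaving out adult trachea replicate 4 brought the lower genes to 7, and leaving out whole-fly replicate 3 to 0. *Vm26Ac* was at 3.10, 0, 0 and 6.75 RPKM in adult trachea replicates 1 to 4, against 42.0, 36.8, 111 and 57.5 RPKM in whole-fly replicates 1 to 4. It lies between *Vm26Ab* and *Vm26Aa* on 2L and shared their lack of overlap between the groups. Against larval tracheae 12 of 18 were higher in adult tracheae (18.2% of all genes) and 2 lower, the peroxidase gene *Pxd* and the cadherin gene *Cad99C*. The higher count was 7 without larval trachea replicate 3 and 8 without larval trachea replicate 2. Set against whole flies, larval tracheae were lower in 16 of 19 (27.5% of all genes) and higher in *tsl*, *Pxd* and *Cad99C*. Of the 19 genes, 8 had 0 reads in every larval library, and *psd* and *yellow-g2* had 1 each in all. Where tested, such genes were tested through the reads of adult tracheae or whole flies alone. Their calls against larval tracheae were thus favoured by the read filter and are no support of their own.

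Several eggshell genes outside the 10 were present mainly in adult trachea replicate 4. *Fcp3C*, a follicle cell protein, was at 1.01, 0.857, 1.11 and 202 RPKM in adult trachea replicates 1 to 4, against 13.3, 117, 121 and 50.4 RPKM in whole-fly replicates 1 to 4. *Cp7Fb* was at 3.63, 1.38, 3.16 and 263 RPKM in the adult tracheae, against 55.5, 42.6, 14.4 and 47.1 RPKM in the whole flies. *yellow-g2*, a shell-hardening factor, was at 4.21, 0.192, 1.59 and 248 RPKM in the adult tracheae, against 215, 366, 153 and 259 RPKM in the whole flies. Adult trachea replicate 1, although it held 5042 RPKM of *Cp19*, was thus poor in these 3 genes. None of the 3 was called between adult tracheae and whole flies.

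Since the eggshell surrounds a germline cyst, 20 female germline genes were set beside the eggshell set. Their summed RPKM was 443, 634, 53.3 and 1022 in adult trachea replicates 1 to 4, 65.1 to 80.2 in a larval library and 1583 to 2096 in a whole-fly one. In the larval libraries nearly all of it came from *me31B*, an RNA-binding helicase that is not limited to the germline, at 59.8 to 73.1 RPKM, and *vas*, *nos*, *yl*, *bam* and *gnu* had 0 reads. Adult trachea replicate 2 stood out here, since it had the second highest germline sum of the 4 and very little eggshell RNA. *osk*, the RNA that specifies the germ plasm, was at 15.99, 52.9, 1.13 and 35.2 RPKM in adult trachea replicates 1 to 4, against 46.8 to 51.3 RPKM in whole flies. The summed eggshell RPKM was 20.2, 0.335, 1.78 and 13.5 times the germline sum in adult trachea replicates 1 to 4, against 8.20, 7.80, 7.92 and 19.3 times in whole-fly replicates 1 to 4. *me31B* supplied 237 RPKM of the germline sum in adult trachea replicate 2 and 30.2 RPKM of that in replicate 3. Without it the eggshell sum was 30.8, 0.535, 4.13 and 15.9 times the germline sum in adult trachea replicates 1 to 4, against 9.36, 8.20, 8.18 and 20.4 times in whole-fly replicates 1 to 4. Eggshell and germline transcripts were thus measured in unequal proportion in adult tracheae, and their source was not tested.

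**Figure D5:**
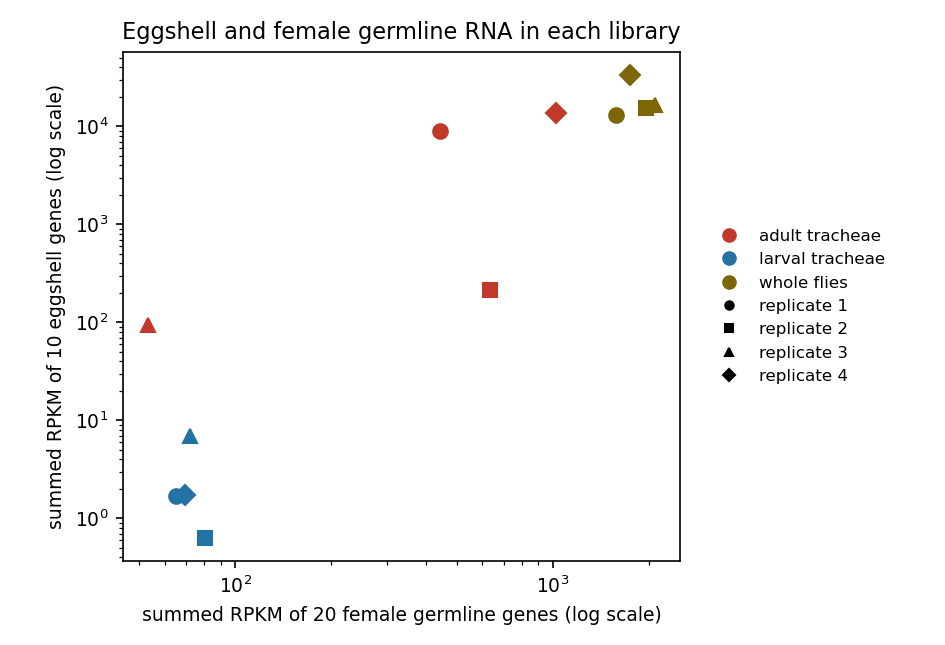
Summed RPKM of the 10 eggshell genes against that of 20 female germline genes, both on log axes, for each library (adult tracheae red, larval tracheae blue, whole flies olive). Adult trachea replicate 2 has a germline sum of 634 with an eggshell sum of 213, while replicate 1 has 443 with 8958.

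In edgeR's test 2 of the 20 germline genes were lower in the tracheae of adults than in intact flies, the maternal genes *gnu* (log2 fold change of -2.28) and *swa* (-2.27), and 0 were higher. The share of 2 in 20 is near the 8.05% of all genes called lower. The median of the list was -1.51. The count was 7 by DESeq2. It was 8 or 6 once adult trachea replicate 3 or 4 was removed, and 0 when adult trachea replicate 1, whole-fly replicate 2 or whole-fly replicate 3 was left out. Against larval tracheae 15 of 20 were higher in adult tracheae, with 18.2% of all genes, and 0 lower. Set against whole flies, larval tracheae were lower in 17, with 27.5% of all genes, and higher in 1, *ovo*. Of the 20, *vas*, *nos*, *yl*, *bam* and *gnu* had 0 reads in every larval library, *otu* had 1 in all and *osk* 2. Such genes were tested through the reads of adult tracheae or whole flies alone. Their calls against larval tracheae were thus favoured by the read filter and are no support of their own.

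The yolk protein genes *Yp1*, *Yp2* and *Yp3*, which the fat body and the follicle cells transcribe, moved the other way from the eggshell genes. Adult tracheae exceeded whole flies in all 3, with a median log2 fold change of 2.46, where 16.7% of all genes were called higher. Their summed RPKM ran from 38836 to 84623 in adult tracheae, from 4.28 to 9.08 in larval ones and from 13580.5 to 17073 in whole flies. The yolk sum of every adult trachea library was thus above every whole fly, including the libraries with little eggshell RNA. Of 11 fat body genes 6 were higher and 1 lower in the same comparison, where 16.7% of all genes were called higher and 8.05% lower. Their summed RPKM was 273 to 512 in adult tracheae against 121 to 156 in whole flies. The fat body genes called higher numbered 2 with limma on log2(RPKM + 0.1). The part of fat body RNA in the yolk values was not tested.

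Among 18 genes for the amplification of chorion DNA, which include the origin recognition subunits, *dup* and the E2F and Myb complexes, 1 was higher in adult tracheae and 3 were lower, beside 16.7 and 8.05% of all genes. The higher gene was *chif*, the activator of the Cdc7 kinase (log2 fold change of 2.13, edgeR, adjusted p = 0.0171), and the lower ones were *Rbf* (-1.35), *mip40* (-1.29) and *lin-52* (-1.10). The lower genes numbered 11 without adult trachea replicate 4, and 0 when adult trachea replicate 2 or any of whole-fly replicates 2, 3 and 4 was left out. The call of *chif* was lost without adult trachea replicate 2. Against larval tracheae 1 was higher in adult tracheae, beside 18.2% of all genes, and 1 was lower. With whole flies as the base, 11 were lower in larval tracheae, beside 27.5% of all genes, and 2 were higher. Most of these genes work in any dividing cell, and copy number was not measured here.

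Of 9 tested regulators of follicle cells, 2 were higher in adult tracheae, *Fas3* and *br*, and 0 were lower, with whole flies as the base, where 16.7% of all genes were higher. The higher genes numbered 7 without adult trachea replicate 4, 5 by DESeq2, and 1 when adult trachea replicate 2 or 3 was removed or any of whole-fly replicates 2, 3 and 4. *Fas3*, a junction protein also found in other epithelia, had a mean of 13.2 ± 8.87 RPKM in adult tracheae, 40.1 ± 4.53 RPKM in larval ones and 2.36 ± 2.37 RPKM in whole flies (SD, n = 4 each). The median log2 fold change of the same regulators in adult against larval tracheae was -1.62, where it was 0.16 over all genes tested. In larval tracheae over whole flies it was 3.62, where it was -0.24 over all genes tested. For the other lists, 2 shares of all genes are not given: those called lower in adult than in larval tracheae, and those called higher in larval tracheae than in whole flies.

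Other tissues were followed in the same way for the comparison with whole flies. In edgeR's test, of 16 tracheal markers 7 were higher in adult tracheae and 0 lower, of 11 muscle genes 7 and 0, of 11 midgut enzyme genes 1 and 5, and of 2 spermatheca genes 0 and 0, where 16.7% of all genes were higher and 8.05% lower. The muscle genes called higher numbered 3 once whole-fly replicate 2 or 3 was dropped, 4 once replicate 4 of the whole flies was, and 1 with limma on log2(RPKM + 0.1). The midgut genes called lower numbered 8 without adult trachea replicate 3, and the tracheal markers called higher 11 by DESeq2. The summed RPKM of the midgut genes ran from 1454 to 7960.4 in adult tracheae, against 35681 to 38714 in whole flies. This sum was thus lower in all 4 adult trachea libraries, those rich in eggshell RNA included. Most of it came from *alphaTry* and *betaTry*, with means of 25602 and 7340 RPKM in whole flies. *LManII* went the other way, with 11.1 to 21.8 RPKM in adult tracheae against 1.52 to 6.17 RPKM in whole flies. Some others, such as *Amy-p* and *Mgstl*, overlapped between the groups.

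The genes whose levels ran most like the eggshell classes over the 8 adult libraries were ranked by Pearson's r of log2 CPM among 6680 genes. For the mean of the vitelline membrane genes the 8 highest included *psd* (r = 0.99), *mRpL1* (0.98), *Vm26Ac* (0.98), *MED19* (0.98), *Srp14* (0.97), *Rbf* (0.97) and *SLIRP1* (0.97). Thus 2 of the 8 were eggshell genes outside the 10. For the mean of the 3L chorion genes they included *Vti1b* (0.98), *mod(mdg4)* (0.97), *CG33107* (0.97), *awd* (0.96), *Sf3a2* (0.96), *lwr* (0.96) and *tzn* (0.95), none of these on the eggshell list. The 8 points fall into 2 groups that differ in many genes, so these coefficients describe the libraries and carry no p. Among the 10 genes themselves, *Cp18* ran least like the vitelline membrane mean (r = 0.64) and *Cp15* least like the 3L mean of which it is a part (r = 0.75). By Spearman's rank correlation, *Cp36* ran least like the vitelline membrane mean, at 0.45, where *Cp18* was at 0.79. *Cp15* was again least like the 3L mean, at 0.24.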

How the data were processed

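RNA from 4 libraries each of adult tracheae, larval tracheae and whole flies was analysed. Groups follow the sample titles. Each deposited file also bears a short code that could be read as a different group, so *btl*, *trh* and the eggshell genes were compared with the titles, and they went against none of them. The authors made full-length cDNA, amplified by PCR, and mapped the Illumina reads to BDGP6 with the CLC Genomics Workbench (version not given in the sources used here). The deposited counts are unnormalized reads of each gene, total and uniquely mapped, over gene, exons and introns. The deposited RPKM values, computed by the authors, matched total exon reads scaled to exon length and library gene reads in all of 111308 values above 0. The deposited TPM values of the authors were not used.

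The members and gene lists were chosen with earlier results of these data known. All 10 members are named. From each list the text names genes it counts, at most the 6 of highest mean RPKM and any called against the majority, and *Vm26Ac*, *psd*, *Fcp3C*, *Cp7Fb*, *osk* and *me31B* were singled out after their values were seen. Lists of midgut, muscle and spermatheca genes were also counted. Total gene reads were tested in R 4.3.3 with edgeR 4.0.16 (TMM, quasi-likelihood F-test), each comparison on its own 8 libraries, keeping genes that reached 10 reads in 2 or more of them. P-values were adjusted by Benjamini and Hochberg over all genes tested, and the code was tested on simulated data. The standard error is the fitted log2 fold change divided by the root of F. Folds against 0 reads use a floor of 3 reads over the group. Ratios and shares used RPKM, and a ratio needed 3 reads in each part. Alternatives were DESeq2 1.42.0, RLE, library sizes without the 20 highest genes, other filters, all 3 groups in 1 fit, a replicate block, unique or exon reads, adjusted p alone, limma 3.58.1 on log2(RPKM + 0.1) or log2(RPKM + 1), and leaving out each library. No 2 of the 12 libraries held identical values. One gene that the rule on likeness would name is not reported here. Promoter motifs were not searched, and no sequence was used here. Computations also used Python 3.11.15, pandas 2.3.3, numpy 2.4.6 and matplotlib 3.10.9.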

Additional observations from a re-analysis of the deposited data

Results flagged for a closer look

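Of 34 sets of 4 values checked for a library far from its group, 6 held one. Larval sets with 0 reads in every library are among the 34 and could hold none. The usual rate of about 1 in 20 assumes normal values, which RPKM need not follow, so the count was not set against chance. Among adult tracheae, replicate 4 was highest for *Cp15* with 7386 RPKM, where the other 3 had 22.1 to 354 RPKM, and for *Vm32E* with 67.8 RPKM, where the others had 0 to 10.9 RPKM. Adult trachea replicate 2 had the lowest X to 3L chorion ratio, 0.0177 against 0.405 to 0.460 in the other adult tracheae. Among larval tracheae, replicate 3 was highest for *Cp36* with 4.82 RPKM, where the others had 0 to 0.261 RPKM, and for *Vm34Ca* with 1.22 RPKM, where the others had 0 reads. Among whole flies, replicate 3 was highest for *Vm26Ab* with 401 RPKM, where the others had 52.2 to 71.9 RPKM.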

How the results depend on the processing

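The count of eggshell genes called lower in larval tracheae than in whole flies was 10 of 10 under every alternative, or 9 of 9 with uniquely mapped reads, which leave out *Vm32E*, and 10 without any 1 library. For adult tracheae against whole flies the count was 3, and it was 6 with limma on log2(RPKM + 1), 4 by DESeq2, 2 with uniquely mapped reads and 1 to 5 when 1 library was left out. For adult against larval tracheae it was 9, and 8 to 9 when 1 library was left out, 8 by DESeq2, which gave no adjusted p for *Cp15*, and 7 with limma at either pseudocount. With filterByExpr it was 3, since only 3 of the 10 genes passed that filter. No fitted value changed its direction under any alternative run.

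Replicate numbers are shared between the groups, but the deviations of libraries with the same number correlated by -0.083 to 0.034, so the numbers were not taken to pair the libraries. With the replicate number as a block the counts were 2 for adult tracheae against whole flies, where *Cp18* was lost, 7 for adult against larval tracheae and 10 for larval tracheae against whole flies.

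The median vitelline membrane to 3L chorion ratio was 0.0718 in adult tracheae and 0.354 in whole flies. It was 0.293 and 0.999 over *Cp15* and *Cp18* alone, where the groups overlapped, and 0.210 in whole flies with the X genes added. Leaving out 1 library gave 0.0631 to 0.0805 for adult tracheae, against 0.289 to 0.419 for whole flies. The X to 3L chorion ratio was 0.417 in adult tracheae and 0.487 in whole flies. It was 1.38 and 1.19 with medians in place of sums, and 0.00719 and 0.0169 with uniquely mapped reads, of which *Cp36* and *Cp38* have few. Leaving out 1 library gave 0.405 to 0.429 for adult tracheae, against 0.295 to 0.678 for whole flies. Values at or under 3 reads in a library were not resolved, and the spread of the adult tracheae limits what a comparison with whole flies could detect.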
